A study of Glycine max with 6 samples.

Results

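Transcripts whose levels stayed most even between low and high phosphate supply were described in soybean nodules as candidates for reference genes. The genes were chosen by their measured values. Among the 4678 genes with a mean of 20 to 200 FPKM over 6 libraries, the 100 with the lowest coefficient of variation were taken, of 39712 genes listed in at least 1 library. FPKM is the number of fragments per kilobase of gene model, scaled to the total of the library, and the coefficient of variation (CV) is the SD over the 6 libraries divided by their mean. Because the choice rests on these values, the evenness of the 100 genes in these libraries is a description and not a finding.

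Soybean of the genotype YC03-3 formed nodules with the rhizobium strain USDA110, and the comparison was between plants given 25 μM KH2PO4 (LP) and plants given 500 μM KH2PO4 (HP). These are the concentrations of the paper, while the labels of the samples state 25 and 500 as mM. Nodules larger than 3 mm were taken on day 25, and each of the 3 LP and 3 HP libraries held the nodules of 2 plants. All plants grew in nutrient solution with nitrate and ammonium. The files pair each gene ID with a position in Wm82.a2.v1 and with no description, so neither a role for a member nor a check of the nodule label by marker genes is given here.

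Soybean nodules are root organs in which rhizobia fix nitrogen inside infected plant cells, and the process demands much phosphate for ATP, membranes and nucleic acids. Under Pi starvation plants induce phosphate transporters, SPX proteins and purple acid phosphatases. Changes of this kind are often measured by qRT-PCR, where the level of a gene is expressed relative to a reference gene that is assumed to be constant. FPKM values are relative as well, since each is a share of the fragments of its library. In whole nodules, fewer cells of a type and less RNA per cell cannot be told apart.

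The libraries held 17716117 to 18909026 fragments at LP and 17930721 to 18688901 at HP. On the log2 scale, Pearson's r between libraries was 0.966 to 0.977 within a treatment and 0.911 to 0.936 between treatments, computed across genes, which are not independent replicates. Each library was a separate pool of plants from one experiment, and p-values rest on the spread between these pools. The test used here, limma, draws the spread of each gene toward that of genes of similar level. A p-value thus does not measure the spread of that gene alone.

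The CV of the 100 genes ran from 2.22% to 5.08% with a median of 4.29%, whereas the median over all 4678 genes of this level was 17.5%. The highest of the 6 values of a gene was 1.07 to 1.16 times the lowest. Levels of the 100 genes had a median of 29.4 FPKM, and 51 of them lay between 20 and 30 FPKM. They made up 2.83% of the genes between 20 and 30 FPKM, 1.89% of those between 30 and 50 FPKM, and 1.52% of those between 50 and 100 as well as between 100 and 200 FPKM.

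The most even transcript was Glyma.02G161100, on the plus strand of chromosome 2 from 19237961 to 19241061. It had 72.4, 74.5 and 77.5 FPKM in the LP libraries and 75.5, 74.8 and 74.4 FPKM in the HP libraries. The HP values fell inside the range of the LP values, and the ratio of the LP mean to the HP mean was 0.999. Glyma.11G237000 (chromosome 11, 33169449 to 33171449, plus strand) had 112.0, 117.5 and 113.7 FPKM at LP and 109.8, 111.9 and 114.5 FPKM at HP. Its CV of 2.34% was the second lowest, and its mean of 113.2 FPKM was among the highest of the 100 genes.

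The next lowest CVs were those of Glyma.04G009500 and Glyma.15G061600, both at the lower end of the level range. Glyma.04G009500 (chromosome 4, 757270 to 761040, minus strand) had 21.7, 22.4 and 23.1 FPKM at LP and 21.7, 22.4 and 21.5 FPKM at HP, a CV of 2.72%. Glyma.15G061600 (chromosome 15, 4748720 to 4753300, plus strand) had 22.0, 20.5 and 21.2 FPKM at LP and 21.0, 20.3 and 21.2 FPKM at HP, a CV of 2.79%. In both genes the treatments overlapped.

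Among genes of higher level, Glyma.06G051400 (chromosome 6, 3884996 to 3887519, minus strand) had 98.3, 99.8 and 94.8 FPKM at LP and 100.7, 102.7 and 97.0 FPKM at HP. Its log2 ratios to the other 99 genes varied least, with a mean SD of 0.067 against a median of 0.083 over the 100 genes. All 100 were chosen for a low CV in the same values, so a low SD follows largely from the choice. Glyma.06G296900, the most abundant of the 100, had 143, 161 and 149 FPKM at LP and 153, 146 and 151 FPKM at HP, a CV of 4.26%. Glyma.02G226000 followed with 146, 153 and 139 FPKM at LP and 140.2, 138 and 147 FPKM at HP. In the last 2 genes the LP libraries spread more widely than the HP libraries.

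The other genes with the 12 lowest CVs were Glyma.11G043900, Glyma.10G144600, Glyma.13G080100, Glyma.14G053300, Glyma.07G267100, Glyma.10G195600 and Glyma.04G063600, with CVs of 2.91% to 3.13%. Glyma.11G043900 (chromosome 11, 3252904 to 3256995, minus strand) had 23.5, 25.4 and 24.5 FPKM at LP and 23.6, 23.7 and 24.3 FPKM at HP. Glyma.13G080100 (chromosome 13, 18649458 to 18664797, minus strand) had 21.2, 22.6 and 21.9 FPKM at LP and 21.0, 21.1 and 22.3 FPKM at HP. In both genes LP replicate 2 held the highest value. Glyma.14G053300 (chromosome 14, 4212867 to 4218706, plus strand) had 20.8, 21.8 and 20.9 FPKM at LP and 21.0, 19.8 and 20.9 FPKM at HP. Glyma.07G267100 (chromosome 7, 44054205 to 44056216, minus strand) had 24.1, 22.7 and 24.4 FPKM at LP and 23.0, 23.0 and 22.9 FPKM at HP. The HP values of Glyma.07G267100 were nearly equal, and its spread lay among the LP libraries. In Glyma.10G195600 (chromosome 10, 42722946 to 42727022, minus strand), with 33.0, 32.7 and 32.7 FPKM at LP and 32.7, 34.6 and 31.5 FPKM at HP, it lay among the HP libraries. Glyma.04G063600 (chromosome 4, 5278800 to 5283336, plus strand) had 42.6, 41.0 and 40.2 FPKM at LP and 43.9, 42.9 and 42.4 FPKM at HP. In 11 of the 12 genes, values of both treatments overlapped, the exception being Glyma.10G144600.

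Of the other genes with the highest levels, Glyma.10G006500 (chromosome 10, 633423 to 637181, plus strand) had 118.5, 128 and 112.8 FPKM at LP and 117.5, 111.8 and 115.6 FPKM at HP. Glyma.13G155700 (chromosome 13, 27075857 to 27080596, minus strand) had 95.2, 107 and 103.1 FPKM at LP and 97.8, 105.2 and 105.9 FPKM at HP. Glyma.12G113800 (chromosome 12, 11166297 to 11168829, plus strand) had 97.7, 100.2 and 101.6 FPKM at LP and 105.8, 103.3 and 93.9 FPKM at HP. The treatments overlapped in all 3 genes. Glyma.10G006500, Glyma.08G031800 and Glyma.17G178800 lay just inside the limit of the choice, with CVs of 5.03%, 5.03% and 5.08%. Glyma.01G042800, Glyma.13G263300 and Glyma.12G032700 lay just outside it, with CVs of 5.08%, 5.08% and 5.09%. The limit thus fell within a continuous run of values.

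**Figure D1:**
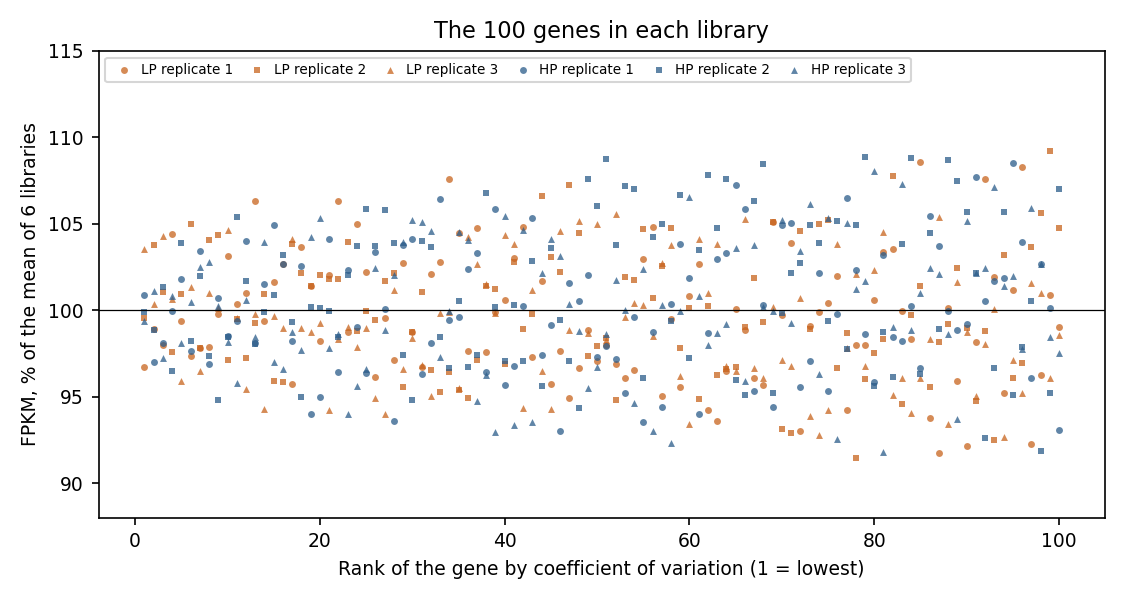
FPKM of the 100 genes in each of the 3 LP libraries (orange) and 3 HP libraries (blue), as a percentage of the mean of the gene over the 6 libraries, ordered by CV from the lowest at the left. All points lie between 91.4% and 109.2%, and the colours are mixed along the whole order.

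The libraries were close to each other over the 100 genes. The median gene was at 99.4%, 99.5% and 99.0% of its mean in the LP libraries and at 99.9%, 100.5% and 100.3% in the HP libraries. Over all 4678 genes of this level, the same medians were 92.4%, 94.0% and 94.4% at LP and 105.2%, 108.2% and 101.9% at HP. HP replicate 2 held the highest value of 29 of the 100 genes, and each of the other libraries that of 12 to 18 genes.

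The LP mean was below the HP mean in 57 of the 100 genes and above it in 43. The ratio of the LP mean to the HP mean ran from 0.921 (Glyma.09G212900) to 1.07 (Glyma.17G261700). In 13 of the 100 genes the LP and HP values did not overlap, with LP lower in 10 and higher in 3, whereas the values of 44.5% of the 31181 genes tested did not overlap. Glyma.09G212900 had 80.3, 81.8 and 84.2 FPKM at LP and 90.3, 89.5 and 87.7 FPKM at HP. Glyma.17G261700 had 103.2, 103.2 and 98.3 FPKM at LP and 92.6, 93.5 and 98.1 FPKM at HP. Glyma.15G055100 and Glyma.13G241800 were the other 2 genes with all LP values above all HP values. Glyma.15G055100 had 73.4, 68.6 and 68.9 FPKM at LP and 67.8, 67.7 and 68.0 FPKM at HP. Glyma.13G241800 had 39.8, 39.7 and 40.1 FPKM at LP and 37.4, 38.8 and 36.1 FPKM at HP. A low CV thus did not require that the treatments overlapped. In limma on log2(FPKM + 0.1), two-sided and adjusted by Benjamini-Hochberg, 0 of the 100 genes differed at an adjusted p of 0.05 or less with at least a 2-fold difference, and 0 had an unadjusted p under 0.05. Of all genes tested, 7.73% passed both thresholds, 3.34% with a higher and 4.39% with a lower level at LP, and 25.7% reached the adjusted p at any fold. In the same limma fit, 39.7% of all genes tested had an unadjusted p under 0.05. The balance of directions turned after median-of-ratios scaling, with 1419 genes higher and 669 lower at LP against 1041 and 1370 without it, and with 1 added to the FPKM values, with 751 higher and 602 lower. The choice used this contrast, and nothing is read from these counts. A p above the threshold does not show that levels were equal.

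The error of counting alone bounds how far the order among the 100 genes can be read. Whole fragment numbers were recovered from the FPKM values, and the 100 genes had a mean of 412.5 to 5050 fragments per library with a median of 1162.5. Counting alone would give a gene of these numbers a CV of 1.41% to 4.92%. The CV of the 100 genes was 0.577 to 3.06 times the counting value with a median of 1.43, against a median of 5.90 over all 4678 genes. In 18 of the 100 genes the CV was smaller than the counting value, and this held for 20 of the 4678 genes. Among the 12 lowest, 8 were below it, among them Glyma.02G161100 with 2.22% against 2.46% from counting and Glyma.04G009500 with 2.72% against 4.71%. The order of these genes is not resolved at this depth. In 14 of the 100 the CV exceeded 2 times the value from counting, the most in Glyma.10G006500. Counting values leave out errors of library preparation, since amplified reads without molecular identifiers are not independent molecules.

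**Figure D2:**
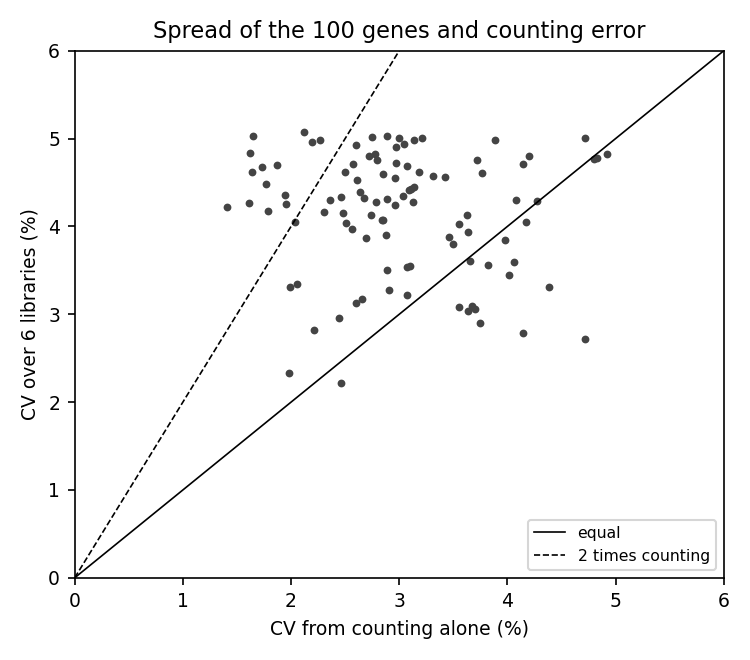
CV over the 6 libraries (%) against the CV that counting alone would give (%), for the 100 genes, with lines at equality and at 2 times the counting value. Points below the solid line are the 18 genes whose CV was smaller than the counting value, and 14 lie above the dashed line.

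Length and fragment number bear on the CV through counting error, so they were not independent of the choice. The gene models of the 100 genes had a median length of 1859 bases (888 to 4466), against 1580 bases over the genes of the level range. Position and strand took no part in the choice. The 100 genes lay on 19 of the chromosomes and on 1 unplaced scaffold (Glyma.U023000, scaffold_22, 492119 to 495651). Chromosome 15 held 12 of them and 5.04% of the genes of the level range, chromosome 13 held 9 and 7.27%, and chromosome 5 held none and 4.72%. The plus strand held 49 of the 100 and 49.0% of the level range. Within 100 kb of each other lay 2 pairs, namely Glyma.15G061300 and Glyma.15G061600 at 22.0 kb and Glyma.11G064000 and Glyma.11G064500 at 36.6 kb. In 6 genes the model overlapped that of another listed gene, the most abundant of which lay over Glyma.18G174600 at 6.08 FPKM. Neither the pairs nor the overlaps are set beside a share of the level range, and nothing is read from their number. The counting is not stated to use the strand, so reads of overlapping genes cannot be told apart. With the genes of the level range in 4 classes of nearly equal size by fragment number, the classes from the lowest to the highest held 19, 26, 34 and 21 of the 100 genes.

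The transcript of TefS1 (Glyma.17G186600), a gene for translation elongation factor 1-alpha, which brings aminoacyl-tRNA to the ribosome, served as the reference in the qRT-PCR of the study. It did not come from the choice above, and it was lower at LP. It lies on chromosome 17 from 23719358 to 23722187 on the plus strand and had 577, 576 and 546 FPKM in the LP libraries and 1025, 958 and 983 FPKM in the HP libraries. All LP values were below all HP values. Its level was 566 ± 17.7 FPKM at LP and 989 ± 33.7 FPKM at HP (SD, n = 3 each), so the LP mean was 57.3% of the HP mean. On the log2(FPKM + 0.1) scale LP and HP differed by -0.80 with a standard error of 0.10 (limma, adjusted p = 0.00146), less than the 2-fold difference used as a threshold for calls. It was -0.62 after median-of-ratios scaling (adjusted p = 0.00692). Elongation factor 1-alpha has near-identical copies in plant genomes, and how reads shared between copies were counted is not given in the sources used here. TefS1 had a CV of 29.9%, and 81.1% of the 228 genes with a mean above 200 FPKM had a lower one.

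**Figure D3:**
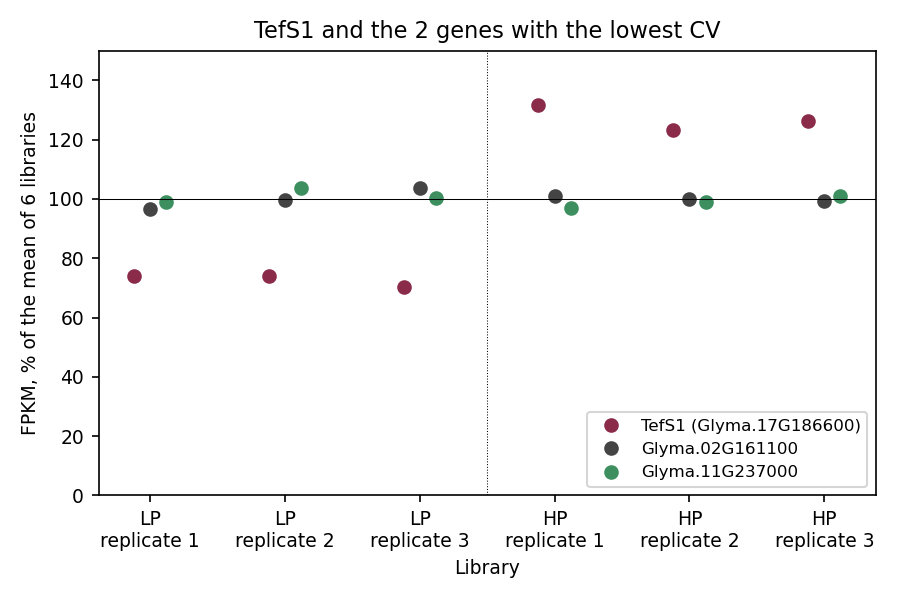
FPKM of TefS1, Glyma.02G161100 and Glyma.11G237000 in each LP and HP library, as a percentage of the mean of the gene over the 6 libraries. TefS1 was at 70.2% to 74.2% in the LP libraries and at 123% to 132% in the HP libraries, while both other genes stayed near 100%.

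Relative to the geometric mean of the 100 genes, TefS1 was at 16.2, 16.1 and 15.4 in the LP libraries and at 28.6, 26.5 and 27.4 in the HP libraries, a log2 difference of -0.79. A gene expressed relative to TefS1 therefore shows a larger LP to HP ratio in these libraries than the same gene relative to the 100 genes. This holds for the sequencing values only. The qRT-PCR folds of the study, which included GmPT7, were not compared with them, and nothing is said here about their size. For the phosphate transporter gene GmPT7 (Glyma.10G186500), the log2 difference was 2.97 relative to TefS1, 2.18 relative to the 100 genes, and 2.16 in log2(FPKM + 0.1). For the acid phosphatase gene GmPAP30 (Glyma.18G132500), it was 1.98 relative to TefS1, 1.19 relative to the 100 genes, and 1.18 in log2(FPKM + 0.1). The 100 genes were chosen to be even in FPKM, so the last 2 values of each gene are alike by construction. The study listed its GmPT, GmPAP and GmSPX genes because they responded to Pi in these same libraries, so none of them could be among the 100. Of the 32 such genes in the files, 19 lay in the level range of 20 to 200 FPKM. Their CVs ran from 42.7% (GmPAP30) to 110.0% (GmSPX9).

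Whether the 100 genes were even depended on how libraries were scaled to each other. Median-of-ratios scaling sets the median gene of each library to the same level, and its factors were 0.976, 0.930 and 0.920 for the LP libraries and 1.09, 1.08 and 1.05 for the HP libraries. The factors move the mean log2 difference between LP and HP by 0.19 in every gene alike. The 100 genes had been held near 0 in FPKM, so on this scale their log2 ratios, 0.069 to 0.29 with a median of 0.17, lay above 0 by construction. Their median CV was 8.26% there. On the FPKM scale the median log2 ratio of the 100 genes was -0.014, while it was -0.159 over all genes of the level range. The median gene of the range and the 100 genes were thus not level on the same scale. The 100 most abundant genes took 26.2%, 26.9% and 27.7% of the fragments in the LP libraries and 22.1%, 23.0% and 23.0% in the HP libraries. The part of this in the shift was not tested.

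**Figure D4:**
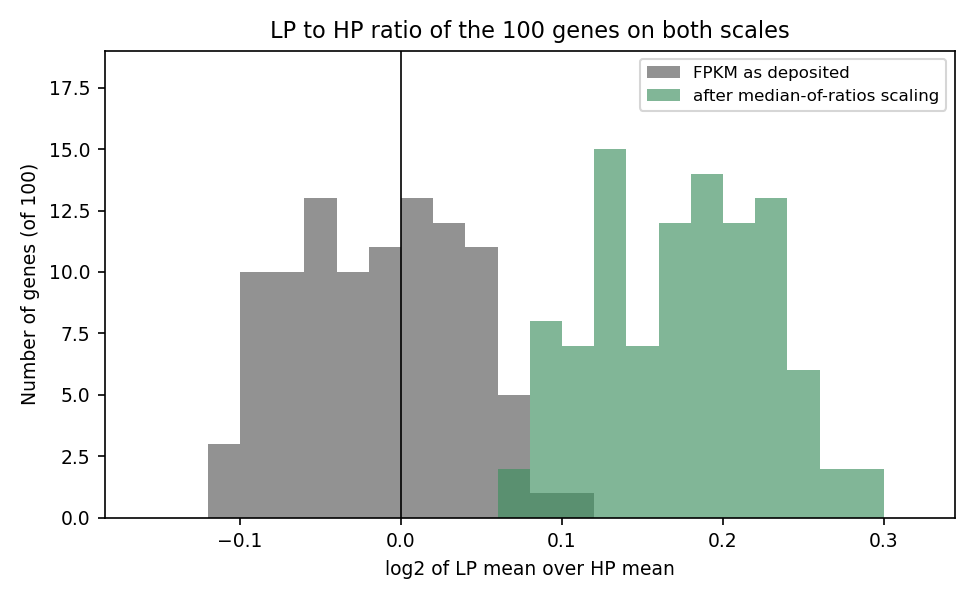
Number of the 100 genes by the log2 ratio of the LP mean to the HP mean, on the FPKM scale (grey) and after median-of-ratios scaling (green). The grey bars lie on both sides of 0 between -0.12 and 0.10, and the green bars between 0.069 and 0.29, after a shift of about 0.19 common to all genes.

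When the choice was repeated after median-of-ratios scaling, 7 of the 100 genes were chosen again. The genes chosen on that scale had a median log2 ratio of -0.18 in FPKM, which reflects the same common shift. After quantile normalization 29 of the 100 were chosen again. Scaling the FPKM values to the same sum in each library kept 49, and 69 where the level range was left as it was. Under these scalings 4 genes were chosen every time, which were Glyma.10G144600, Glyma.01G204000, Glyma.19G121700 and Glyma.04G216700.

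Glyma.10G144600 (chromosome 10, 37946971 to 37951547, plus strand) and Glyma.01G204000 (chromosome 1, 53690453 to 53695422, minus strand) were also chosen without any of the 6 libraries in turn. These repeats reused the libraries of the choice, so being kept in them follows largely from a low CV. Glyma.10G144600 had 40.8, 40.8 and 40.2 FPKM at LP and 43.1, 42.5 and 42.7 FPKM at HP. Glyma.01G204000 had 21.4, 22.2 and 21.1 FPKM at LP and 23.0, 23.1 and 22.8 FPKM at HP. In both genes all LP values lay slightly below all HP values in FPKM, with ratios of the LP mean to the HP mean of 0.949 and 0.939. Their CVs were 2.96% and 3.80% in FPKM and 4.75% and 4.64% after median-of-ratios scaling.

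Glyma.19G121700 (chromosome 19, 37997514 to 38001601, plus strand) had the lowest value of the level range for the highest CV over the 4 scales, 4.42%. It had 28.0, 28.7 and 28.2 FPKM at LP and 30.5, 31.3 and 29.3 FPKM at HP. Glyma.04G216700 (chromosome 4, 48786039 to 48789385, minus strand) came next with 4.55% and had 23.1 FPKM in each LP library and 24.7, 25.7 and 23.7 FPKM at HP. The LP values of both genes lay below their HP values. In the repeats without 1 library, Glyma.19G121700 was chosen in 4 of 6 and Glyma.04G216700 in 3 of 6. This measure was chosen after the values were seen.

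Evenness was also read in a library that took no part in the choice, for genes chosen anew each time. The other 5 libraries held both treatments, so the choice still used the contrast of LP with HP. When each library was left out in turn and 100 genes were chosen on the other 5, the number of genes within 10% of the mean of those 5 libraries was 68, 74 and 78 in LP replicates 1, 2 and 3 and 73, 51 and 59 in HP replicates 1, 2 and 3. Of all genes in the level range, 32.6%, 33.7% and 34.7% lay within 10% in the LP libraries and 36.0%, 29.3% and 30.8% in the HP libraries. The lowest value was 64.1% of the mean of the other libraries and the highest 156%. The values in an unused library were thus wider than the 91.4% to 109.2% of the 100 genes in the libraries that chose them. The latter range is relative to the mean of all 6 libraries. That mean includes the library itself, which by itself makes deviations somewhat smaller. HP replicate 2, left out, had a median of 107.2%, above that of the other libraries, which had 96.5% to 100.5%.

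**Figure D5:**
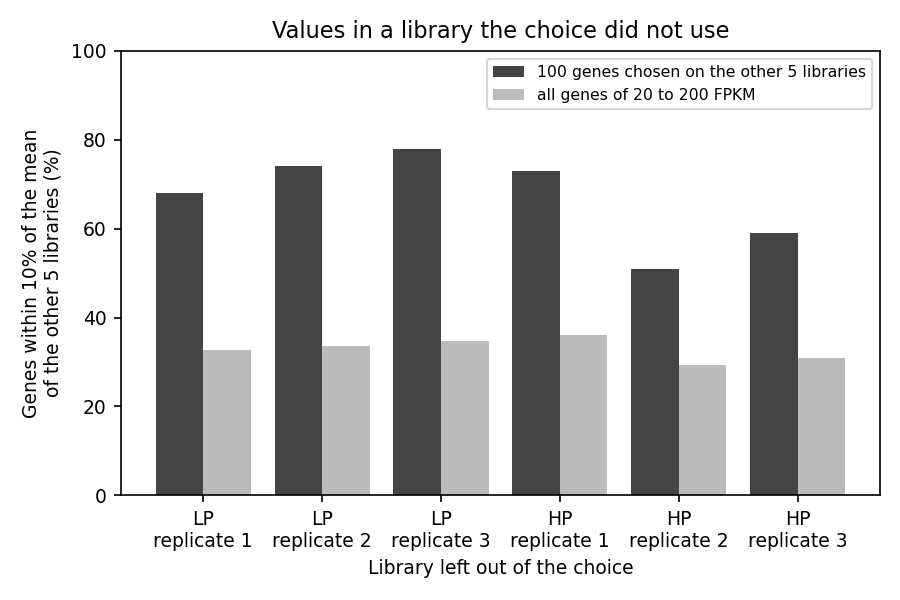
Share of genes (%) whose FPKM in a library lay within 10% of the mean of the other 5 libraries, for the 100 genes chosen on those 5 (dark bars) and for all genes of 20 to 200 FPKM (light bars), by the library left out. The dark bars reach 68, 74 and 78 for LP and 73, 51 and 59 for HP, and the light bars lie between 29.3% and 36.0%.

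The same choice repeated without a library kept 65, 70 and 73 of the 100 genes without LP replicates 1, 2 and 3, and 68, 54 and 56 without HP replicates 1, 2 and 3. Of the 100 genes, 35 were chosen in all 6 of these repeats, and they included all 12 genes with the lowest CV. Each repeat reused all but 1 of the libraries of the choice. The genes with the lowest CVs were thus kept largely by construction, and their being kept is no added support.

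In FPKM, genes chosen for evenness within a single treatment had LP and HP means close to each other about as often as all genes of their level. The 100 genes with the lowest CV among the 3 LP libraries, at most 1.31%, shared 10 genes with the 100 described here. Their LP means lay within 10% of their HP means in 26 of 100 cases, against 25.7% of the genes in the same level range, and their log2 ratios of LP to HP ran from -1.21 to 8.59. The 100 genes with the lowest CV among the 3 HP libraries, at most 1.59%, likewise shared 10. Of these, 24 lay within 10%, against 24.2% of the genes in the range, and their log2 ratios of LP to HP ran from -1.27 to 0.91. After median-of-ratios scaling, 34 of the 100 genes chosen at LP and 41 of those chosen at HP lay within 10%, against 29.1% and 30.5% of the genes in the range. Over the 4678 genes, counting alone would give a median CV of 3.03%, above the highest CV among the genes chosen within a treatment. Which genes had the lowest CV over 3 libraries is thus largely unresolved at this depth. A share close to that of all genes could follow from this alone. These shares therefore cannot decide whether evenness within a treatment goes with evenness between treatments. These choices were added after the values were seen.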

How the data were processed

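The deposited values are FPKM, listed by the authors for genes above 0 in each library. Genes absent from a file entered as 0. The submitters' processing notes name HISAT2 2.1.0, Bowtie2 2.2.3 and DESeq2 1.6.3. In the methods, a Bowtie2 index, alignment with HISAT2 to Wm82.a2.v1 and abundance from Cufflinks are described. Coordinates are those of the files, counted from 1.

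Library constants were obtained from the most frequent ratio of FPKM between libraries, which marks genes of equal fragment number. The smallest whole numbers in proportion to the values, within a relative tolerance of 1e-09, were then found for 100.0% of the 39712 genes, where a common factor was restored if the gene model length was otherwise a fraction. The library totals were set by the value that made the most lengths whole among 400 genes (99.25% of them within 1e-05 bases, before common factors were restored). The fragments of listed genes add up to 99.7% of these totals. A common factor of all 6 numbers can be missed. Fragment numbers served only for counting error, 1 divided by the square root of the mean number.

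The limma fit (limma 3.58.1, R 4.3.3, eBayes with trend and robust, statmod 1.5.0) used genes of at least 0.5 FPKM in 3 libraries. The code, tested on simulated data of 31181 genes, recovered 93% of genes changed 2-fold and 100.0% of those changed 4-fold at the adjusted p. The 200 changed genes were drawn only from genes above a minimum fragment number, and all genes were given the same relative spread beyond counting. These shares check the code and are not the sensitivity for genes of few fragments or wider spread. Choices and counts were computed in Python 3.11.15 (pandas 2.3.3, numpy 2.4.6), and plots drawn in matplotlib 3.10.9.

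Members, lists and measures were chosen with earlier results of these data known. Named genes are the 12 lowest CVs, the 6 highest levels, those kept under all scalings and all libraries left out, the 3 on each side of the limit, and TefS1. Others were named after their values were seen. Families of common reference genes, marker genes and promoter motifs had been planned, but the reference at hand gives no description or sequence for these gene IDs, and they were not analysed here.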

Additional observations from a re-analysis of the deposited data

How the results depend on the processing

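Of the 100 genes, 97 were chosen again by the SD of log2(FPKM + 0.1), 96 with 1 added, 87 by the highest over the lowest value, and 97 with no upper level limit. Fewer were kept after median-of-ratios scaling (7), quantile normalization (29) and scaling to the same sum in each library (49), with a mean of 10 to 400 FPKM (40) or of 1 FPKM or more (25), and 54 to 73 without a library. A wider level range puts more genes into the choice of 100, by construction. Of measures added after the data were seen, the pairwise SD of log2 ratios kept 14, the highest CV over 4 scales 36, the LP or HP libraries alone 10 each, and the CV less counting variance 83. The median CV of the 100 was 8.26% after median-of-ratios scaling, 5.58% after quantile normalization, and 4.05% to 4.33% without a library. For other settings that changed membership the cause was not tested.

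Genes called between LP and HP numbered 2411, with 1041 higher and 1370 lower. With 1 added to the FPKM values, 1353 were called, 751 higher and 602 lower, and median-of-ratios scaling gave 1419 higher and 669 lower. The paper, which used DESeq2 at the same thresholds, reported more genes up-regulated than down-regulated by P deficiency. That is the reverse of the balance in FPKM as deposited. It is the same direction as after median-of-ratios scaling and with 1 added to the FPKM values. The cause of the difference was not tested. TefS1 kept its direction and passed the adjusted p in every limma fit run (both other added constants, no minimum, median-of-ratios scaling, the replicate block and each library left out), with log2 fold changes of -0.83 to -0.62 (-0.83 to -0.78 without a library). After quantile normalization and scaling to the same sum, which were not fitted, its log2 ratio of LP to HP means was -0.87 and -0.81. With the replicate number as a block, 2334 genes were called. Same-numbered LP and HP libraries had correlations of 0.17, -0.020 and -0.15 in their deviations from the treatment means, and not every library correlated best with its own number. The numbers were not taken as pairs.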

Other observations

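A measure that a single factor per library cannot change was added after the data were seen. Quantile normalization can change it. It is the mean SD of the log2 ratio of a gene to each other gene of the level range, over the 4675 genes with a value above 0 in every library. It was 0.32 to 0.36 for the 100 genes, with a median of 0.34, and had a median of 0.40 over the level range. The 100 genes lowest in this measure shared 14 genes with the 100 chosen in FPKM and 49 with the 100 chosen after median-of-ratios scaling. Among the 100 genes themselves, Glyma.06G051400, Glyma.10G144600, Glyma.11G237000, Glyma.02G161100 and Glyma.10G195600 had the lowest mean SD of log2 ratios to the others, from 0.067 to 0.070. The 100 genes were chosen for a low CV in the same values, so these low SDs follow largely from the choice.

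Of the 7 genes chosen in FPKM and again after median-of-ratios scaling, Glyma.09G212900 had the highest level, with a mean of 85.6 FPKM. The other 6 had means of 22.3 to 41.7 FPKM. A place among the 100 on both scales, which differ by a common shift, left room only for genes slightly below 0 in FPKM, and the log2 ratios of the 7 were -0.12 to -0.076.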
